A study of Mus musculus with 89 samples.

Results

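The comparison described here is between lungs of surfactant protein D-deficient mice sampled 168 h and 96 h after an intranasal challenge with the mould allergen Aspergillus fumigatus (Af), all of them 12 h after ozone. It holds 9 of the 89 arrays of the series: 4 arrays labelled SP-D-/- Af 168 h with ozone (replicates 1, 3, 4 and 6) and 5 labelled SP-D-/- Af 96 h with ozone (replicates 2 to 6). The sixth array at Af 96 h, replicate 1, was left out because it carries a wild-type level of Sftpd, the deleted gene. The mice were male and 7 to 8 weeks old, were sensitized to Af by injection into the abdomen on days 0 and 7, were challenged on day 13, and breathed 3 ppm ozone for 2 h. Allergen, ozone, sex and gene deletion were therefore shared by both groups, and the labelled difference was the time since challenge, with ozone given 12 h before sampling in each. RNA came from the perfused left lobe. The labels give neither the background strain of the knockout line nor the origin of the replicates. The p-values therefore measure only the spread between arrays within groups, which may be technical. That spread was pooled over all 18 groups of the fit and not taken from these 9 arrays alone. The whole series covers SP-D-/-, BALB/c and C57BL/6 lungs in air, after ozone, after Af, or after Af and ozone, with 2 to 6 arrays in each of 18 groups.

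Surfactant protein D is a secreted lectin of alveolar type 2 and airway cells that binds sugars on fungal walls and helps phagocytes clear them. Inhaled Af proteins in a sensitized mouse draw in eosinophils and type 2 T cells and turn lung macrophages to the alternatively activated state, in which they make resistin-like molecule alpha (Retnla), arginase (Arg1) and chitinase-like proteins. Ozone is an oxidant gas that injures the airway lining and recruits neutrophils, and the comparison addresses how lungs exposed to it differ between a later and an earlier stage of the allergic response.

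Sftpd itself, given as a description because it was used to choose the arrays, read 5.47, 6.83, 7.75 and 5.44 at Af 168 h on replicates 1, 3, 4 and 6. At Af 96 h it read 7.13, 7.37, 6.83, 7.32 and 7.11 on replicates 2 to 6, against 10.94 on the array left out. Values throughout are deposited log2 signals, so a difference of 1 is a factor of 2. On 19 genes that separate BALB/c from C57BL/6 lungs in air, with -1 the C57BL/6 mean and 1 the BALB/c mean, the 9 arrays lay between -0.912 and -0.225, on the C57BL/6 side.

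Among the Af 168 h arrays, 2 stood apart. The correlation across genes of an array with the median profile of all arrays was 0.787 for replicate 1 and 0.630 for replicate 6, whereas replicates 3 and 4 reached 0.950 and 0.949 and the Af 96 h arrays 0.913 to 0.980. In the series 15 of 89 arrays had a correlation under 0.85. The mean signal of 18 hybridization control probe sets, which read RNA added in the laboratory, was 11.64 ± 0.51 at Af 168 h and 10.81 ± 0.47 at Af 96 h (SD, n = 4 and 5; two-sided exact permutation p = 0.0635, adjusted over 3 array measures 0.167, smallest possible p 0.0159). Its part in the results was not tested beyond the fits given here. Results are therefore given with all arrays and, for the genes and lists that follow, after refitting on the 73 arrays left without those 15, which sets Af 168 h replicates 3 and 4 against the 5 Af 96 h arrays.

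With all arrays, the moderated test of limma called 567 of 15065 genes higher (3.76%) and 928 lower (6.16%) at Af 168 h than at Af 96 h, at a Benjamini-Hochberg adjusted p under 0.05, or 1495 in either direction (9.92%). Without the arrays that stood apart it called 38 higher (0.252%) and 27 lower (0.179%). Both fits called 47 genes in the same direction (0.312%), 27 higher (0.179%) and 20 lower (0.133%). Of the rises 563 of 567, and of the falls 908 of 928, had the same sign in the refit, with a median size 0.504 times as large. With Af 168 h replicates 1 and 6 alone left out and the other groups kept whole, 15 genes were called higher and 0 lower. The log2 differences are the same in that fit and in the refit. The falls called in the refit therefore depend on which arrays of other groups set the spread. With the hybridization control level as a covariate, 107 genes were higher (0.71%) and 114 lower (0.757%). All 4 Af 168 h arrays lay above all 5 Af 96 h arrays for 574 genes (3.81%) and below them for 995 (6.6%). The median of all genes was -0.15 with all arrays and -0.02 without those that stood apart. Single arrays moved these counts: without Af 168 h replicate 6 there were 24 rises and 19 falls, without replicate 1 there were 77 and 81, without replicate 3 there were 1542 and 2415, and without replicate 4 there were 1121 and 1801. Without Af 96 h replicates 2, 3, 5 or 6 the rises numbered 155 to 199 and the falls 269 to 412. Of 60 called genes followed through the alternative fits, 17 kept the call without Af 168 h replicate 6 and 27 without replicate 1. Of the same 60, 11 kept it whichever of the 9 arrays was left out: Ccl8, Cd209e, Sfrp2, Scin, Col6a2, Tnnc2, Car3, Ttn, Myl1, Ucp1 and Dgat2. Cxcr6 and the genes under Other observations are not among the 60.

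**Figure D1:**
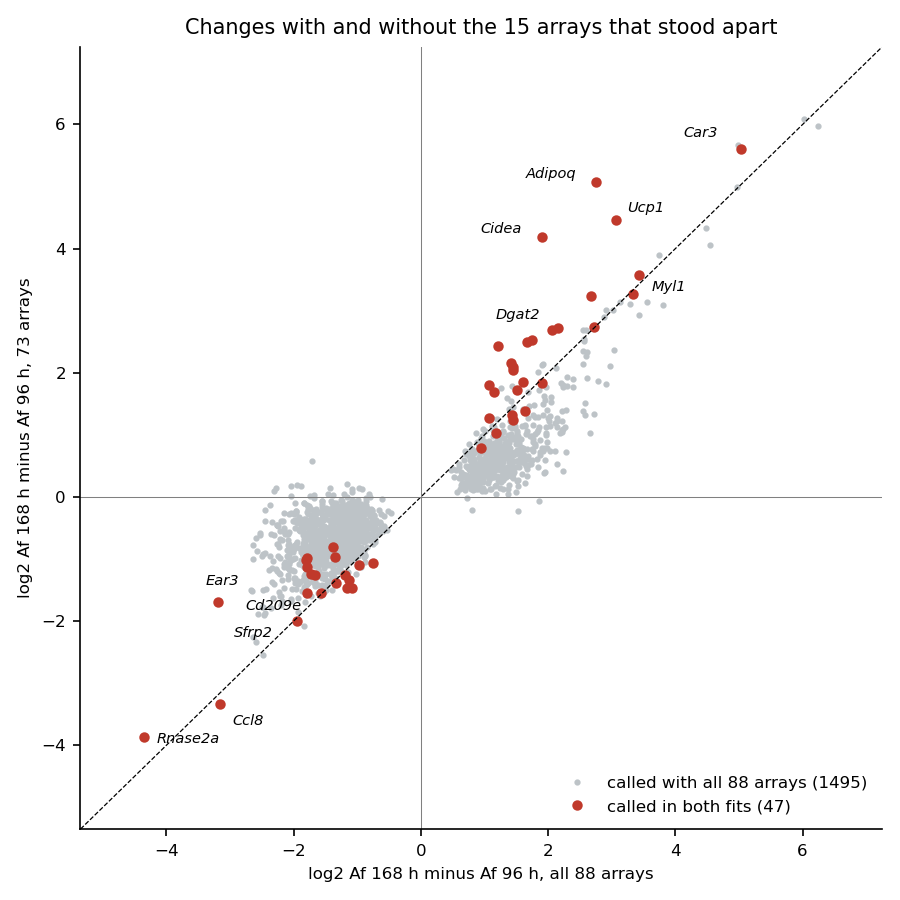
Each point is a gene called with all 88 arrays, placed by its log2 difference, Af 168 h minus Af 96 h, in that fit (horizontal) and in the fit on 73 arrays (vertical), with the dashed line marking equal values. The 47 genes called in both fits are red, and most grey points lie nearer to 0 on the vertical than on the horizontal axis.

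The largest fall among the genes named by size was that of Rnase2a, a ribonuclease of the eosinophil-associated family. It read 3.54, 4.07, 4.54 and 3.11 at Af 168 h, against 7.49, 9.02, 6.82, 9.31 and 8.19 at Af 96 h. All Af 168 h arrays lay more than 2 units under the lowest Af 96 h array, and the mean difference of -4.35 ± 1.02 (SE) was a 20.4-fold fall (adjusted p = 0.0097, and 0.0485 in the refit). Without replicate 6 it was -4.11 with an adjusted p of 0.083. Ear3 belongs to the same ribonuclease family, whose members are near-identical, so its probe set may read several of them. It gave 8.40, 8.28, 9.69 and 3.58 at Af 168 h and 10.49, 11.10, 9.95, 11.28 and 10.57 at Af 96 h, with the lowest value on replicate 6, without which the call was lost. Its fall of -3.19 ± 0.74 (adjusted p = 0.00922) was -1.69 in the refit (adjusted p = 0.0488).

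Ccl8, a chemokine that in mice attracts type 2 T cells through the receptor CCR8, was tightly grouped at Af 168 h. It read 6.57, 6.03, 6.22 and 6.37 there, against 8.50, 10.24, 9.14, 10.50 and 8.93 at Af 96 h. The groups did not overlap, and the fall was 8.96-fold (-3.16 ± 0.71, adjusted p = 0.00725), and as large in the refit at -3.34 (adjusted p = 0.0493). Of the list of 10 chemokines that draw eosinophils and related cells, Ccl8 was the 1 member called (10%, against 6.16% of all genes). The list had 9 of 10 differences negative with a median of -0.70, or -0.09 with the hybridization control covariate. Of 4 eosinophil markers on the array, Epx and Ccr3 were under the filter level of 4.45 on all 9 arrays, while Prg2 and Siglecf were not. The mean of the 4 ran between 3.71 and 3.83 at Af 168 h and between 3.72 and 4.39 at Af 96 h. None of the 5 tested members of the eosinophil list was called. Their median difference was 0.01, or -0.17 in the refit and -0.18 with the hybridization control covariate. In whole-lobe RNA, fewer cells of a type and less RNA per cell cannot be told apart.

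Alternatively activated macrophage genes were lower as a group. Of the 17 genes on that list, all tested, 4 fell (23.5%, against 6.16% of all genes) and none rose, 15 of 17 differences were negative, and their median was -0.79. The size was alike on every Af 168 h array: relative to the Af 96 h mean, the list's median was -0.85 and -0.92 on replicates 1 and 6 and -0.66 and -0.72 on replicates 3 and 4. With the hybridization control covariate the list's median was -0.50, with 1 fall called. In the refit its median stayed at -0.74 and 16 of 17 differences were negative, although 1 of the 17 was called.

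The 1 gene of that list called in the refit was Pdcd1lg2, which encodes PD-L2, a ligand of the inhibitory T cell receptor PD-1. It read 3.34, 3.37, 3.35 and 3.56 at Af 168 h and 4.46, 4.91, 4.54, 5.14 and 4.63 at Af 96 h. The groups were apart by about 1 unit at a low signal (-1.33 ± 0.37, adjusted p = 0.0238, refit 0.0485). Its call was lost without Af 168 h replicate 1 or 6, or without Af 96 h replicate 3 or 5. Mgl2, a C-type lectin of macrophages and dendritic cells, read 4.36, 5.21, 5.97 and 3.91 at Af 168 h and 7.17, 7.86, 6.47, 7.54 and 7.75 at Af 96 h. Its 5.65-fold fall (-2.50 ± 0.59, adjusted p = 0.00971) separated the groups, with an adjusted p of 0.0769 in the refit, and its call was lost without replicate 1 or 6. Clec10a, the neighbouring lectin of the same family, fell by 1.61 ± 0.51 (adjusted p = 0.0376, refit 0.169). The groups overlapped through 1 array, replicate 4 at Af 96 h (4.52).

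A further pair of macrophage and dendritic cell surface genes was picked after their values were seen, because both fits called them. Cd209e, a lectin of the DC-SIGN family, read 3.04, 3.16, 3.08 and 3.10 at Af 168 h and 4.27, 5.14, 4.34, 5.05 and 4.56 at Af 96 h (-1.58 ± 0.30, adjusted p = 0.00235, refit 0.0349). Slamf8, a receptor of myeloid cells, read 3.19, 2.90, 3.43 and 3.97 at Af 168 h, against 4.15, 5.08, 4.31, 4.94 and 4.02 at Af 96 h (-1.12 ± 0.30, adjusted p = 0.0186, refit 0.0421). The call of Slamf8 was lost without Af 168 h replicate 1, or without Af 96 h replicate 3 or 5. All Af 168 h values of both genes were under the filter level. So were some Af 96 h values, 4.27 and 4.34 for Cd209e and 4.15, 4.31 and 4.02 for Slamf8.

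The textbook members Retnla and Arg1, also chosen after their values were seen, missed the threshold. Retnla read 12.28, 12.59, 12.59 and 12.23 at Af 168 h and 13.09, 13.32, 13.09, 13.20 and 12.96 at Af 96 h. The groups did not overlap, but the difference of -0.71 ± 0.33 had an adjusted p of 0.121. The Af 96 h values lay close to 13.54, the highest signal on any array. Arg1 read 4.83, 4.90, 4.81 and 5.36 at Af 168 h and 5.61, 7.40, 5.39, 7.90 and 7.25 at Af 96 h, again without overlap (-1.74 ± 0.62, adjusted p = 0.055).

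Chitinases and chitinase-like proteins act on or bind chitin, the polymer of fungal walls, and 3 of the 4 tested fell (75%, against 6.16% of all genes). Chil4 read 10.16, 9.32, 10.89 and 7.98 at Af 168 h and 12.37, 11.35, 11.57, 11.60 and 11.95 at Af 96 h (-2.18 ± 0.71, adjusted p = 0.0401). Chil3 read 10.81, 10.59, 11.61 and 8.26 at Af 168 h and 11.95, 12.33, 11.44, 12.10 and 12.06 at Af 96 h (-1.66 ± 0.44, adjusted p = 0.0183). These genes are near-identical, so their probe sets may read each other's transcripts, and both were lowest on replicate 6. Chia1, the acid chitinase of mammals, fell by 1.41 ± 0.49 (adjusted p = 0.0496). None of the 3 was called in the refit (adjusted p 0.191 to 0.249), where the list's median was -0.98.

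**Figure D2:**
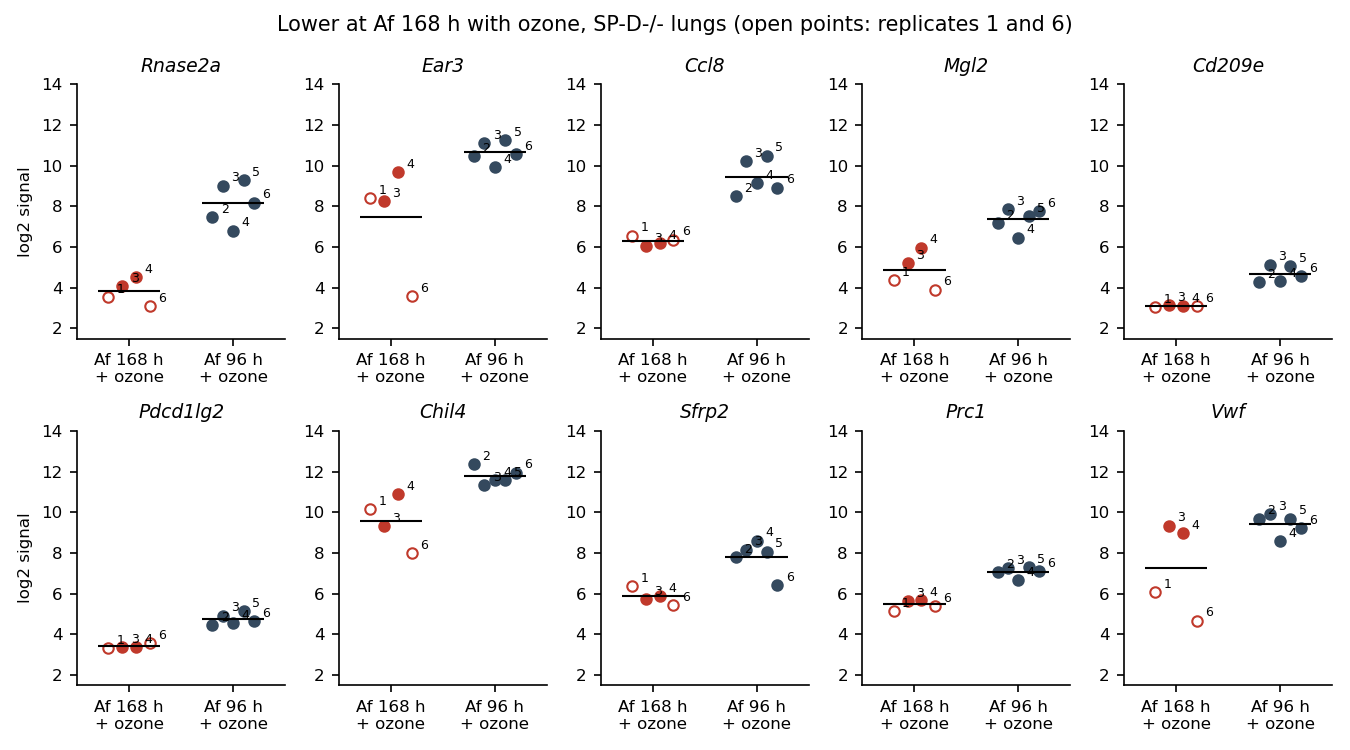
Log2 signal of 10 genes that were lower, with a point for each array, its replicate number beside it and a black line at the group mean, Af 168 h left and Af 96 h right. Open points are replicates 1 and 6. For Rnase2a, Ccl8, Cd209e and Pdcd1lg2 all 4 Af 168 h arrays lie under all 5 Af 96 h arrays, while Vwf is low on replicates 1 and 6 only.

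The promoters of Retnla, Pdcd1lg2 and Cd209e are shown because each holds a palindrome of TTC and GAA with any 4 bases between them, the letters that STAT-family factors, which act downstream of type 2 cytokines, are known to bind. The sequences are the 250 bases before the gene start in RefSeq (GRCm38.p6), 5′ to 3′ on the gene's strand, with the palindrome in capitals. Retnla lies on the plus strand at chr16:48842359-48842608, Pdcd1lg2 on the plus strand at chr19:29410669-29410918 and Cd209e on the minus strand at chr8:3854287-3854536. The first base of the palindrome is 145, 82 and 79 bases before the start in that order.
Retnla: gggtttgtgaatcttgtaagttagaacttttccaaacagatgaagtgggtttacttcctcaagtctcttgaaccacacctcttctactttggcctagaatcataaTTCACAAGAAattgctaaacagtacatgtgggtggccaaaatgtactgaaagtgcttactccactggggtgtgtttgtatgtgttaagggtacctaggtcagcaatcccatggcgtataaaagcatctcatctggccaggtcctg
Pdcd1lg2: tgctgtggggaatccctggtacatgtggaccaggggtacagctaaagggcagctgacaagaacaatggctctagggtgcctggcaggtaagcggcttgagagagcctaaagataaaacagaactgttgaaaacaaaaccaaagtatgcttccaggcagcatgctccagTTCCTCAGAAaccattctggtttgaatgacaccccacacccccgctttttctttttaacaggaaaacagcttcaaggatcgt
Cd209e: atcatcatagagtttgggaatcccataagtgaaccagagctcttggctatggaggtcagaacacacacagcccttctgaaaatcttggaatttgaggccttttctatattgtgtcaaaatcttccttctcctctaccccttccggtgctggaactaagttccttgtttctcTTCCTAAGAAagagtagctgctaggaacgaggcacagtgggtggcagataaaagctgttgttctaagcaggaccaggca

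Of 27025 promoters of that length, 1585 (5.86%) hold the palindrome, which reads the same on both strands. Among the 20 genes that fell in both fits, 16 had a promoter in the table and 2 held it (12.5%), Pdcd1lg2 and Cd209e. Among the 27 that rose in both fits, 2 of 19 held it (10.5%). A match describes the letters only, and the 3 genes were chosen for holding it.

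The other exposures of SP-D-/- lungs give the range of these levels. Rnase2a averaged 3.82 ± 0.62 at Af 168 h with ozone and 8.17 ± 1.04 at Af 96 h with ozone (SD, n = 4 and 5), and it averaged 3.97 ± 0.56 in air alone (n = 5) and 5.67 ± 1.99 at Af 168 h with air (n = 5), where single arrays ran between 3.18 and 8.10. Ccl8 averaged 6.30 ± 0.23 at Af 168 h with ozone, against 9.46 ± 0.86 at Af 96 h with ozone, and 5.35 ± 0.55 in air alone. All 4 of its Af 168 h ozone arrays, the lowest at 6.03, were above the highest air array (5.74), whereas the Af 168 h arrays with air alone ran between 4.70 and 9.38 and reached under it. Retnla averaged 12.42 ± 0.19 at Af 168 h with ozone and 11.37 ± 0.36 in air alone. These other groups are descriptions, with no test.

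**Figure D3:**
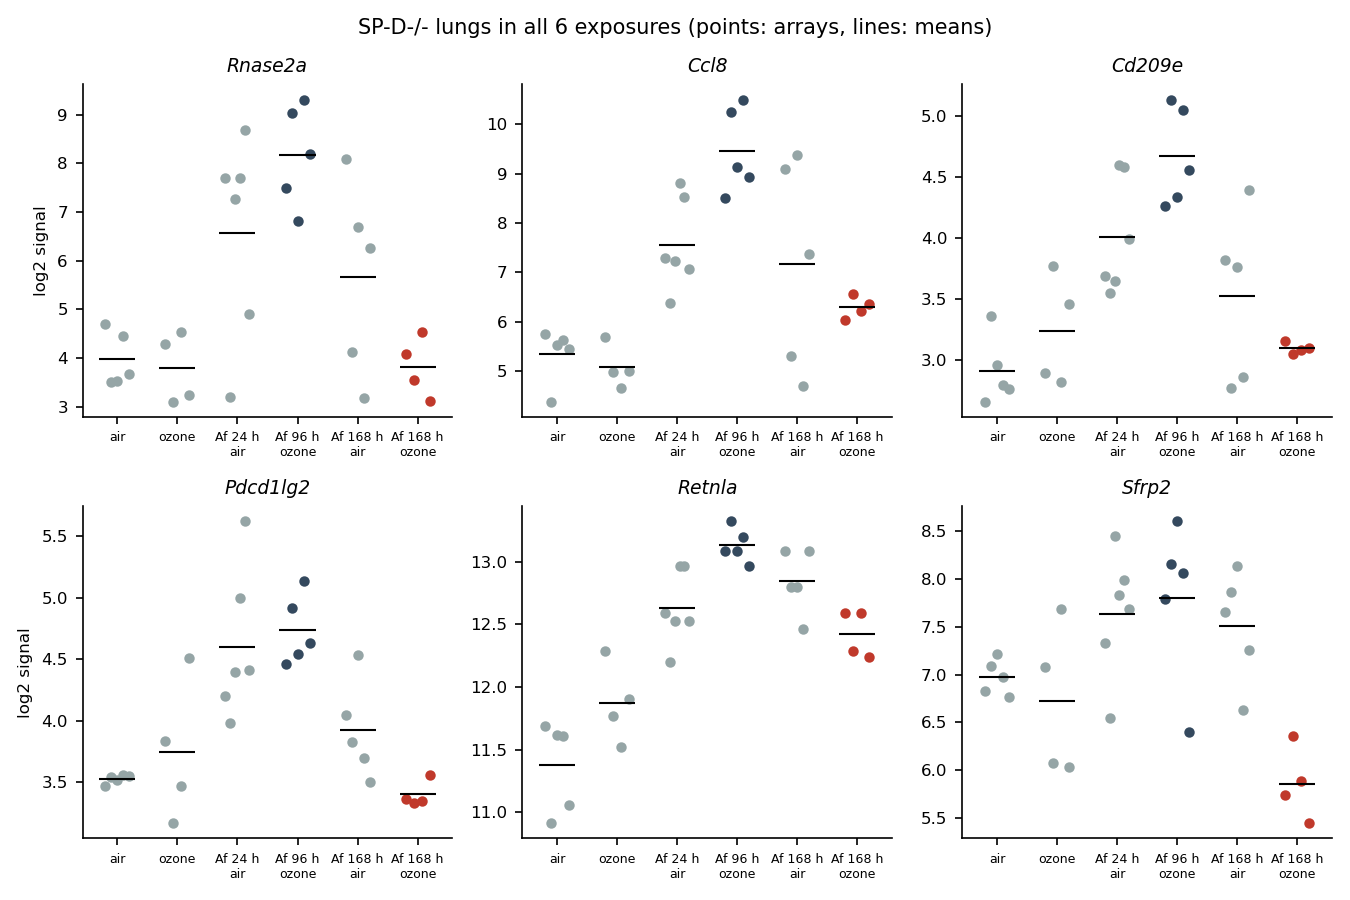
Log2 signal of 6 genes in all SP-D-/- groups, from air through ozone, Af 24 h with air, Af 96 h with ozone and Af 168 h with air to Af 168 h with ozone, with a point for each array and a line at each mean. Rnase2a, Cd209e and Pdcd1lg2 at Af 168 h with ozone (red) lie in the range of the air and ozone arrays, and for Sfrp2 3 of the 4 lie under it, with replicate 1 inside.

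Other genes that fell belong to the airway and stroma. Sfrp2, a secreted modulator of Wnt signalling picked after its values were seen, read 6.35, 5.75, 5.88 and 5.45 at Af 168 h and 7.79, 8.16, 8.61, 8.07 and 6.40 at Af 96 h. It was the same size in both fits (-1.95 ± 0.40, adjusted p = 0.00318, and -1.99, adjusted p = 0.0172). Scin, an actin-severing protein, read 4.09, 4.24, 4.10 and 3.22 at Af 168 h and 7.01, 4.73, 7.88, 5.79 and 7.13 at Af 96 h (-2.59 ± 0.52, adjusted p = 0.00318, refit 0.0704). Slc26a4, the anion exchanger pendrin, read 8.67, 7.16, 8.56 and 6.70 at Af 168 h and 9.47, 10.05, 8.61, 9.96 and 10.46 at Af 96 h. The groups overlapped through replicate 1 and replicate 4, and the fall (-1.94 ± 0.63, adjusted p = 0.0408) was -1.85 in the refit (adjusted p = 0.143). It was the 1 call among 18 goblet and mucus genes (5.56%, near the 6.16% of all genes). Of the 18, 14 were lower (median -0.45).

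Proliferation genes were lower in number without many calls. Of 47 tested, 34 differences were negative with a median of -0.41, and it was -0.40 in the refit with 38 negative. Over all genes, 8671 of 15065 differences were negative, with a median of -0.15. The test called 5 lower (10.6%, against 6.16% of all genes) and 2 higher (4.26%, near the 3.76% of all genes). Prc1, which builds the spindle midzone, read 5.14, 5.64, 5.66 and 5.40 at Af 168 h and 7.06, 7.26, 6.66, 7.29 and 7.12 at Af 96 h (-1.61 ± 0.44, adjusted p = 0.022). Its groups were about 1 unit apart. Pbk, a mitotic kinase, fell by 1.77 ± 0.49 (adjusted p = 0.0216), and Cep55, needed for the last step of cell division, by 2.66 ± 0.66 (adjusted p = 0.0147). None of the 3 was called in the refit (adjusted p 0.114 to 0.343) or without Af 168 h replicate 1 or 6. Cenpa, the centromeric histone, rose, with 7.67 and 7.24 on replicates 1 and 6 against 5.28 and 5.39 on replicates 3 and 4 and 4.35 to 4.98 at Af 96 h (adjusted p = 0.0341, refit 0.576).

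A second kind of fall was carried by replicates 1 and 6. Of 23 endothelial genes, 5 fell (21.7%, against 6.16% of all genes) and 22 differences were negative (median -1.08), but the list's median against the Af 96 h mean was -1.87 and -2.28 on replicates 1 and 6 and -0.13 and -0.11 on replicates 3 and 4. In the refit it was -0.11 and no member was called. Vwf, the clotting carrier protein of endothelium, read 6.09, 9.35, 8.97 and 4.67 at Af 168 h and 9.69, 9.92, 8.58, 9.69 and 9.24 at Af 96 h. Tie1, an endothelial receptor, read 4.21, 7.47, 7.69 and 3.19 at Af 168 h and 8.12, 8.12, 8.50, 8.35 and 8.10 at Af 96 h. Plvap, which forms the diaphragms of capillary openings, read 6.87, 9.15, 9.01 and 3.58 at Af 168 h and 9.67, 9.80, 8.88, 9.73 and 9.35 at Af 96 h. Each was more than 2 units lower on replicates 1 and 6 than on replicates 3 and 4, and their refit differences were -0.27, -0.66 and -0.41.

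Clotting, complement and alveolar genes were lower on replicates 1 and 6 than on replicates 3 and 4 by their list medians, but not to the same extent. The coagulation medians were -1.85 and -2.76 on replicates 1 and 6 and -0.33 and -0.67 on replicates 3 and 4, and the complement medians were -1.39 and -2.50, and -0.47 and -0.61. Of 13 coagulation genes, 5 fell with all arrays (38.5%, against 6.16% of all genes; median -1.31) and none in the refit (median -0.40). F2r, the thrombin receptor, read 7.53, 9.47, 9.47 and 3.13 at Af 168 h and 9.87, 9.99, 9.34, 10.11 and 9.96 at Af 96 h. F3, tissue factor, fell by 2.01 ± 0.69 (adjusted p = 0.0488) and the protease inhibitor Tfpi2 by 2.56 ± 0.56 (adjusted p = 0.00551), and in the refit they stood at -0.88 (adjusted p = 0.418) and -1.88 (adjusted p = 0.107). Tfpi2 was lower on all 4 Af 168 h arrays than on any Af 96 h array, with 3.36, 4.56, 4.74 and 3.23 against 6.39 to 6.82. Of 14 complement genes 4 fell (28.6%), among them C2 (-2.19 ± 0.58), Hc, which encodes C5 (-1.55 ± 0.45), and the C1 inhibitor Serping1 (-1.96 ± 0.66). Their refit differences were -1.73, -0.76 and -0.37, none of them called. Of 15 alveolar type 2 genes 6 fell (40%) and none in the refit, including the transcription factor Etv5 (-1.42 ± 0.45, refit -0.55), and the list's median was -0.78 with all arrays and -0.22 in the refit.

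Stromal, mesothelial and antigen presentation genes fell as well. Of 29 collagen and matrix genes 10 fell (34.5%, against 6.16% of all genes) and none rose, with a median of -1.09. In the refit none was called and the median was -0.56. Col6a2, a chain of microfibrillar collagen, read 7.12, 8.53, 8.51 and 5.47 at Af 168 h and 9.19, 9.86, 9.60, 9.99 and 9.78 at Af 96 h, so that all Af 168 h arrays were lower (-2.28 ± 0.36, adjusted p = 0.000207, refit -1.16 with 0.0996). Its partner Col6a3 and the fibril-associated Col14a1 fell by 2.21 ± 0.71 and 2.09 ± 0.58, and their refit differences were -0.98 (adjusted p = 0.389) and -1.31 (adjusted p = 0.317). Of 9 mesothelial genes 4 fell (44.4%) and none in the refit, all 9 differences were negative, and the median was -1.37, or -1.08 in the refit. Msln, mesothelin, read 6.69, 7.75, 7.04 and 6.23 at Af 168 h and 8.57, 8.97, 8.06, 9.12 and 7.65 at Af 96 h (adjusted p = 0.0207, refit 0.307). Upk3b and Gpm6a, which mark the same lining, fell by 2.33 ± 0.69 and 1.98 ± 0.67 (refit -1.62 and -1.35, neither called), and both were low on Af 96 h replicate 4 too.

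Antigen presentation genes were lower on each Af 168 h array, by a list median of -1.14 and -1.72 on replicates 1 and 6 and -0.77 and -0.57 on replicates 3 and 4. The test called 6 of 17 lower (35.3%, against 6.16% of all genes). Cd74, the invariant chain of class II molecules, read 10.27, 10.63, 11.00 and 9.41 at Af 168 h and 11.56, 11.85, 11.23, 11.84 and 11.59 at Af 96 h (-1.29 ± 0.37, adjusted p = 0.0256, refit -0.80 with 0.18). The groups did not overlap for Cd74, for H2-Ab1 (-1.67 ± 0.44) or for H2-Eb1 (-1.28 ± 0.41), the chains it accompanies. In the refit 16 of 17 differences were negative, with a median of -0.59 and no call. Abcg1, a cholesterol exporter of macrophages, was called in both fits (-1.81 ± 0.43, adjusted p = 0.0102, refit 0.0281). It read 6.86, 7.79, 7.51 and 5.27 at Af 168 h, against 8.59, 8.71, 9.25, 8.40 and 8.37 at Af 96 h. Kit, the stem cell factor receptor of mast cells and other lung cells, fell by 2.50 ± 0.65 with all arrays. It read 3.29, 6.65, 6.82 and 3.98 at Af 168 h and 7.39 to 7.98 at Af 96 h, its refit difference was -0.94 (adjusted p = 0.417), and the call was lost without replicate 1 or 6. Cpa3 and Mcpt4, 2 of 6 mast cell markers on the array, were under the filter level on all 9 arrays.

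**Figure D4:**
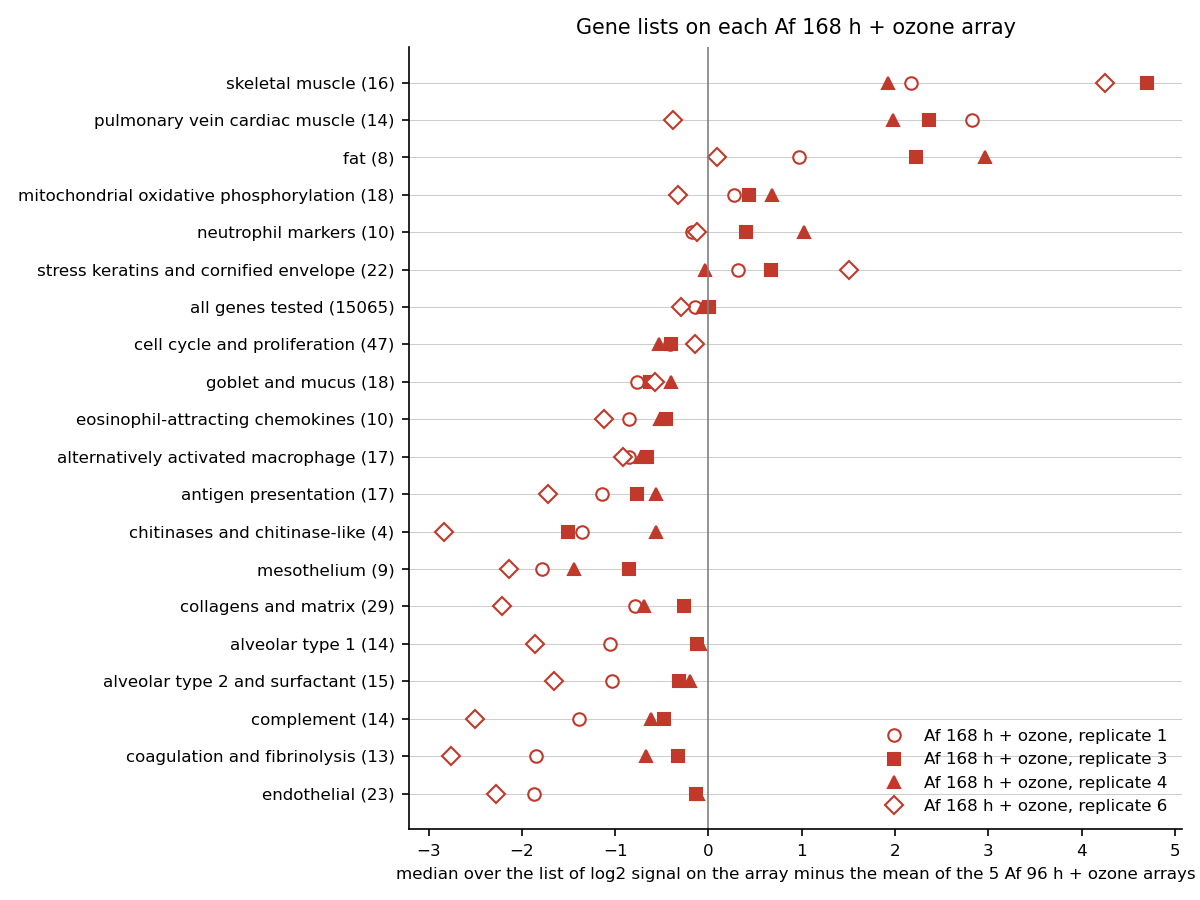
For 19 gene lists and all genes tested, the median over the list (number of genes in brackets) of the log2 signal on each Af 168 h array minus the mean of the 5 Af 96 h arrays. Open symbols are replicates 1 and 6, closed symbols replicates 3 and 4. The endothelial medians split into -1.87 and -2.28 against -0.13 and -0.11, while the alternatively activated macrophage medians lie together between -0.92 and -0.66.

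The largest rises were of skeletal muscle genes, which encode the contractile proteins of body wall and limb muscle. Of 16 on the list 11 rose (68.8%, against 3.76% of all genes), all 16 were higher, and their mean level over the list ran between 6.59 and 9.11 on the Af 168 h arrays and between 4.29 and 4.41 on the Af 96 h arrays. Tnnc2, the calcium-binding troponin of fast muscle, read 9.39, 11.53, 9.30 and 11.18 at Af 168 h and 4.12, 4.39, 4.49, 4.49 and 4.15 at Af 96 h (65.1-fold, 6.02 ± 1.30, adjusted p = 0.00504). Myh1, a fast myosin heavy chain, read 9.72, 10.88, 8.81 and 11.06 at Af 168 h and 3.72, 3.51, 4.04, 4.13 and 3.95 at Af 96 h (6.25 ± 1.37, adjusted p = 0.00551). The groups were more than 4 units apart for both. Acta1, the actin of skeletal muscle, and Tnnt3, another fast troponin, rose by 4.99 ± 1.35 and 4.98 ± 1.14, with refit adjusted p-values of 0.105 and 0.0893, and these 2 and Myh1 lost the call without replicate 6. The refit gave similar sizes (5.97 for Myh1, 6.09 for Tnnc2) but called 1 of the 16, Myl1, a myosin light chain (3.43 ± 0.66, adjusted p = 0.00235, refit 0.035). Muscle genes moved with the group, and their part in the other results was not tested.

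Muscle genes shared with the heart and the pulmonary veins were higher too, by their list median, on replicates 1, 3 and 4. Csrp3, a structural protein of striated muscle, read 9.61, 10.12, 8.35 and 8.84 at Af 168 h and 6.36, 5.74, 5.90, 6.30 and 6.80 at Af 96 h (3.01 ± 0.88, adjusted p = 0.0277, refit 3.02 with 0.192). Ttn, the giant spring protein of heart and skeletal muscle, rose by 3.81 ± 0.77 (adjusted p = 0.00318, refit 3.10 with 0.114). Of 14 pulmonary vein and heart genes 3 rose (21.4%, against 3.76% of all genes), with a list median of 1.53. On replicate 6 that median was -0.38, where the skeletal list stood at 4.25. Of the 3 rises, Myl1 is on the skeletal list too. The mean level over the 14 genes ran between 5.99 and 8.75 at Af 168 h with ozone and between 5.50 and 7.17 at Af 96 h with ozone. It ran between 7.41 and 7.94 in air alone and between 6.15 and 8.31 at Af 168 h with air. Neither of 2 cardiac markers, Myl7 and Tnnt2, was called (mean 4.11 to 10.5 at Af 168 h, 5.51 to 8.74 at Af 96 h).

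Car3, a carbonic anhydrase abundant in muscle and fat, kept its call under all 24 alternatives run. It read 9.33, 10.53, 10.46 and 9.41 at Af 168 h and 4.37, 5.27, 4.37, 5.23 and 5.25 at Af 96 h, a 32.8-fold rise (5.04 ± 0.89, adjusted p = 0.000742, refit 5.60 with 0.00221). In SP-D-/- lungs in air it averaged 8.78 ± 1.00 (SD, n = 5), between the 2 groups.

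Fat genes rose in 7 of the 8 tested (87.5%, against 3.76% of all genes), and the same 7 were called in the refit. The refit keeps replicates 3 and 4, where the list's median against the Af 96 h mean was 2.23 and 2.96. On replicates 1 and 6 it was 0.97 and 0.10, so the refit calls rest on the arrays where these genes were highest. With the hybridization control covariate 4 of the 8 were called higher. Adipoq, the hormone adiponectin, read 3.23, 7.41, 7.45 and 2.35 at Af 168 h and 2.29, 2.29, 2.13, 2.42 and 2.63 at Af 96 h, so replicates 3 and 4 carried the rise (2.76 ± 0.75, adjusted p = 0.0199, refit 5.08 with 0.0015). Ucp1, the uncoupling protein of brown fat, read 4.96, 7.09, 9.17 and 5.76 at Af 168 h and 3.55, 3.34, 3.87, 3.85 and 3.76 at Af 96 h, and was higher on every array (3.07 ± 0.52, adjusted p = 0.000395). Cidea, a lipid droplet protein of brown fat, read 2.93, 6.69, 8.74 and 3.41 at Af 168 h and 3.53, 3.49, 2.93, 3.66 and 4.04 at Af 96 h, with overlap. Adipoq and Cidea lost the call without replicate 3 or 4, and Cidea also without any 1 of the Af 96 h arrays. Dgat2, which makes triglyceride and was picked after its values were seen, kept its call under all 24 alternatives too (2.16 ± 0.44, adjusted p = 0.00318). It read 6.38, 7.62, 7.88 and 6.83 at Af 168 h and 4.97 to 5.08 at Af 96 h. Pdk4, a kinase that shifts fuel use to fat, read 9.77, 10.48, 10.50 and 8.65 at Af 168 h and 7.61, 7.52, 8.31, 7.73 and 7.78 at Af 96 h (2.06 ± 0.62, adjusted p = 0.031). Its call was lost without Af 168 h replicate 1 or 6, or without Af 96 h replicate 2, 3, 5 or 6. It was the 1 call among 15 glucocorticoid-responsive genes (6.67%, against 3.76% of all genes). Of the 15, 9 were lower with all arrays (median -0.12), and 14 were higher in the refit (median 0.54).

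**Figure D5:**
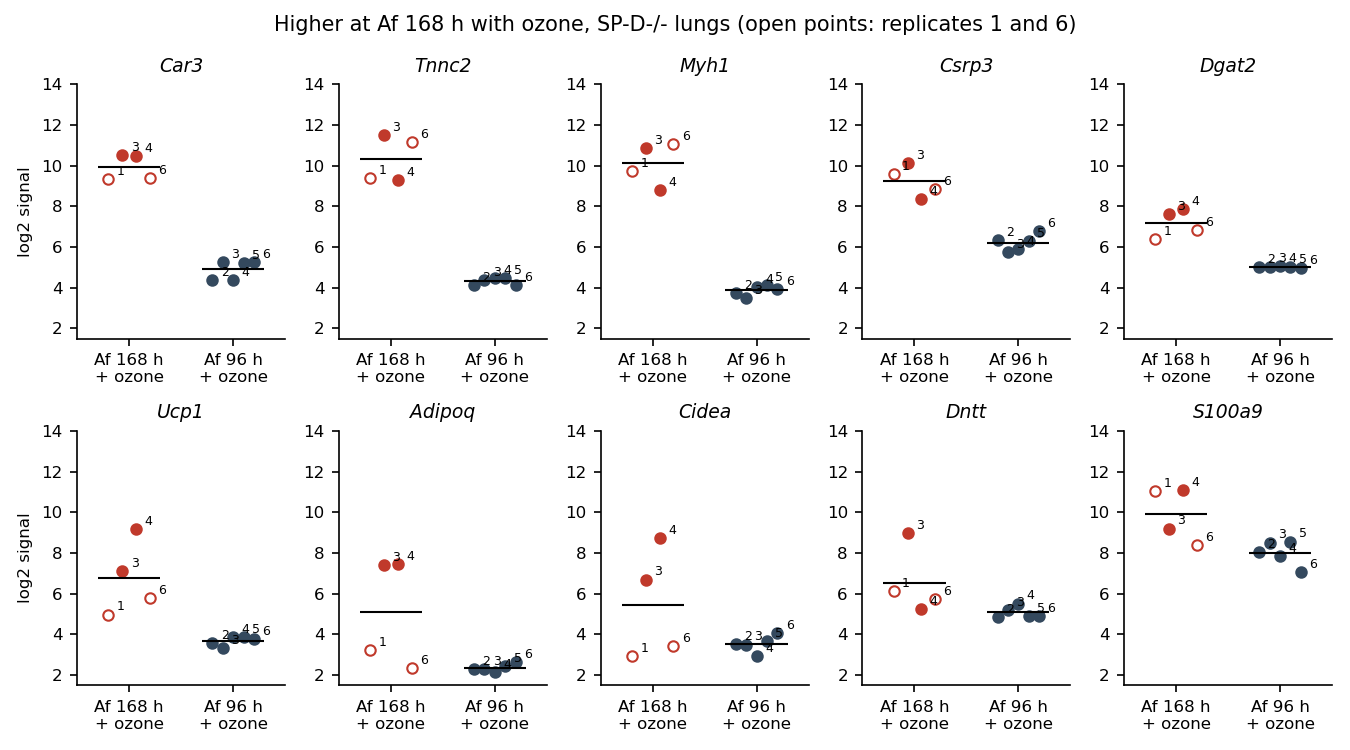
Log2 signal of 10 genes that were higher, with a point for each array, its replicate number beside it and a black line at the group mean, Af 168 h left and Af 96 h right. Open points are replicates 1 and 6. Car3, Tnnc2, Myh1, Csrp3 and Dgat2 are high on all 4 Af 168 h arrays, Adipoq and Cidea on replicates 3 and 4, and Dntt mainly on replicate 3.

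Genes of immature T cells were highest on replicate 3. Dntt, which adds bases at receptor gene joints in developing lymphocytes, read 6.13, 8.99, 5.25 and 5.72 at Af 168 h and 4.86, 5.20, 5.51, 4.89 and 4.91 at Af 96 h (adjusted p = 0.0111). Rag1, the recombinase of the same cells, read 6.64, 8.12, 4.24 and 4.88 at Af 168 h and 4.29, 4.19, 5.01, 4.35 and 4.46 at Af 96 h (adjusted p = 0.0152). Replicate 1 was above all Af 96 h arrays for both genes too. Both were picked after their values were seen, both overlapped between groups, both lost the call without replicate 3, and Rag1 also lost it without replicate 1. Cd8a, the co-receptor of cytotoxic T cells, stood at 9.04 on replicate 3 and at 5.58 to 6.10 on the other Af 168 h arrays, against 5.08 to 5.87 at Af 96 h (adjusted p = 0.0216), and Cd8b1 read 4.07, 6.43, 4.37 and 5.95 at Af 168 h, against 3.86 to 4.31 at Af 96 h. Both lost the call without replicate 3 or 6, and Cd8a also without Af 96 h replicate 6. Of 16 T cell genes tested, Cd8a and Cd8b1 were the 2 that rose (12.5%, against 3.76% of all genes). The 1 that fell was Cxcr6 (6.25%, near the 6.16% of all genes). Of the 16 differences 8 were positive and 8 negative, with a median of 0.02. Cxcr6 read 3.10, 3.64, 3.70 and 3.40 at Af 168 h, against 4.40 to 5.69 at Af 96 h (-1.52 ± 0.39, adjusted p = 0.0168, refit 0.154).

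Of 10 neutrophil genes 1 rose (10%, against 3.76% of all genes). S100a9, a calcium-binding protein of neutrophils, read 11.05, 9.20, 11.10 and 8.39 at Af 168 h and 8.06, 8.51, 7.86, 8.56 and 7.05 at Af 96 h (1.93 ± 0.52, adjusted p = 0.0198, refit 0.0649). Replicates 1 and 4 were highest and replicate 6 overlapped the Af 96 h range. Il1b, an inflammatory cytokine, rose by 0.89 ± 0.30 (adjusted p = 0.0447, refit 0.188). Its call was lost in 7 of the 9 fits without 1 array. It was the 1 call among 19 inflammatory chemokines and cytokines (5.26%, near the 3.76% of all genes). Of the 19 differences 13 were negative, with a median of -0.25, or -0.14 in the refit. Among 22 stress keratins and cornified envelope genes 2 rose (9.09%, against 3.76% of all genes). They were Krt5 of basal cells (1.78 ± 0.61, adjusted p = 0.0482) and Krt13 (1.80 ± 0.55, adjusted p = 0.0328), with neither called in the refit. No gene was called among 19 ciliated or 9 heat shock genes, whose medians were -0.24 and 0.04. The 3 club cell markers, which define airway lining, had a mean of 11.1 to 11.8 on the Af 168 h arrays and of 10.8 to 11.6 on the Af 96 h arrays.

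The same interval was then compared between strains. In C57BL/6 lungs 150 genes rose (0.996%) and 107 fell (0.71%) between the same exposures, with 6 arrays at Af 168 h and 5 at Af 96 h, of which 3 and 3 stood apart from the median profile. The change differed between SP-D-/- and C57BL/6 for 459 genes in the higher (3.05%) and 1021 in the lower direction (6.78%), by the interaction term of the same fit. C57BL/6 Af 96 h replicate 1 carried BALB/c-like strain genes (index 0.823), and without it the counts were 577 and 1197. C57BL/6 Af 168 h replicate 5 also lay off its strain (index 0.0862, Sftpd 9.20), and without it the counts were 1267 and 2007. The changes of Ear3 (-3.19 in SP-D-/-, 0.58 in C57BL/6, difference adjusted p = 0.0142), Mgl2 (-2.50 and 1.34, adjusted p = 0.003) and Car3 (5.04 and -0.37, adjusted p = 0.00503) differed. Without the arrays that stood apart the adjusted p-values of these 3 differences were 0.000443, 0.00164 and 0.0693, and with the hybridization control covariate 0.191, 0.0438 and 0.041. With that covariate the counts were 22 and 42. Rnase2a (-4.35 and -1.34, adjusted p = 0.126) and Ccl8 (-3.16 and -1.26, adjusted p = 0.164) were not shown to differ. In BALB/c lungs no gene was called in either direction (0%; 770 at an unadjusted p under 0.05), and the change differed from SP-D-/- for 0 genes in the higher (0%) and 1 in the lower direction (0.00664%; 2014 at an unadjusted p under 0.05). BALB/c Af 168 h replicate 6 read 5.59 for Sftpd, a knockout-like level, and without it the counts were 3 and 16.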

How the data were processed

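RNA of perfused left lung lobes was amplified with the NuGEN system and hybridized to Affymetrix HT Mouse430PM arrays, per the labels' protocols. The deposited values are log2 signals of 45141 probe sets on 89 arrays, between 1.86 and 13.54, with the same quantiles on every array. Software for the authors' normalization is not given in the sources used here. Precision is limited by the number of arrays.

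Probe sets were named from the platform annotation: 28898 had 1 symbol, 551 several and 15692 none, and 0 symbols needed an update. Each of 17097 genes was read from its probe set of highest mean, and 15065 above the 40th percentile (log2 4.45) on at least 4 arrays were tested. Group means were fitted to 88 arrays, leaving out SP-D-/- Af 96 h with ozone replicate 1, with limma 3.58.1 in R 4.3.3. Its moderated two-sided test gave p-values adjusted by Benjamini and Hochberg over all genes, called under 0.05. Errors of differences are SE, those of group means SD. The refit leaves out the 15 arrays whose correlation with the median profile was under 0.85, and was added after seeing the data.

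The arrays compared and the 46 gene lists were chosen with earlier results of these data known. Genes named are the 12 largest rises and 12 largest falls called, gene models passed over, and of each list up to 3 called members, or 2 members given as values where none was called. Those marked in the text were chosen after their values were seen. The array measures were compared by exact permutation tests in Python 3.11.15 with scipy 1.17.1. Replicate numbers 3, 4 and 6 occur in both groups, but residuals of same-numbered arrays correlated at 0.323, -0.249 and -0.0686, so they share only a number. Tested on simulated data of this comparison with 200 of 15065 genes changed, the fit recovered 34.3% of changes of 1, 77.6% of 2 and 97% of 3 (log2), with 9 other genes called. The simulated noise was independent between genes and had the same spread on every array. It held no arrays that stood apart, so these rates do not carry over to the real arrays. Promoter sequences are RefSeq's.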

Additional observations from a re-analysis of the deposited data

Results flagged for a closer look

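Besides Sftpd, 62 genes were followed through the alternative fits. Cxcr6 and the genes under Other observations are outside this count. For 31 of the 62 the change, Af 168 h minus Af 96 h, differed from that of C57BL/6 lungs, and for 0 from that of BALB/c lungs. The test was the interaction term at an adjusted p under 0.05. Of genes outside the count, Dnajb9 also differed from C57BL/6 by that term (adjusted p = 0.00262) and Hsp90b1 did not (0.296). Over all genes 1480 of 15065 (9.82%) differed from C57BL/6. The 62 genes were chosen mostly for their change on the same SP-D-/- arrays, so nothing is read from the share of 31. Differences below are SP-D-/- minus C57BL/6 in log2 change. In C57BL/6, 3 of 6 arrays at Af 168 h and 3 of 5 at Af 96 h stood apart in correlation. Without the arrays that stood apart 22 of the 31 differences kept an adjusted p under 0.05, and Scin, Col6a2, Msln, F2r, Myh1, Tnnc2, Tnnt3, Car3 and Ttn did not (0.0584 to 0.536). With the hybridization control covariate 6 kept it, Mgl2, C2, Plvap, Upk3b, Car3 and Dgat2.

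Allergy, macrophage and antigen presentation genes with a more negative change in SP-D-/- lungs were Ear3 (-3.77), Mgl2 (-3.84), Abcg1 (-2.17), H2-Ab1 (-2.12), Cd74 (-1.86) and Kit (-3.36). Stromal and mesothelial ones were Sfrp2 (-2.16), Col6a2 (-2.25), Col6a3 (-3.51), Col14a1 (-3.22), Msln (-2.06) and Upk3b (-5.00). Vascular, clotting and complement ones were Tie1 (-3.85), Vwf (-3.06), Plvap (-4.10), F2r (-2.71), Tfpi2 (-2.95), C2 (-4.56) and Serping1 (-3.58). Scin (-2.05) and Etv5 (-2.20) completed this direction.

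Muscle genes with a more positive change were Myh1 (6.46), Tnnc2 (6.34), Tnnt3 (5.36), Ttn (3.68) and Myl1 (3.74). Of these 5, Myl1 alone kept the threshold without the arrays that stood apart (0.0473), and none with the covariate (0.0552 to 0.129). Car3 (5.41), Ucp1 (3.16), Dgat2 (2.68), Dntt (1.53) and Krt13 (2.68) ran the same way. For Upk3b and C2 the C57BL/6 change was itself called, at 2.67 and 2.37.

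A single array lay far from the rest of its group, by Dixon's 95% value, in 10 of 126 group checks, where chance gives about 1 in 20. At Af 168 h, replicate 6 was highest for Pdcd1lg2 (3.56) and Arg1 (5.36) and lowest for Scin (3.22), H2-Ab1 (6.84) and Upk3b (3.42). Replicate 3 was highest for Cd8a (9.04) and Col14a1 (6.04). At Af 96 h, replicate 4 was lowest for Hc (8.84) and Acta1 (3.68) and highest for Krt13 (7.28).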

How the results depend on the processing

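With all arrays the comparison gave 567 rises and 928 falls. Fitted on only the 9 arrays of both groups it gave 41 and 37, with Af 96 h replicate 1 kept 855 and 1408, without arrays of other groups whose Sftpd goes against their label 987 and 1581, and with the hybridization control level as covariate 107 and 114. Without the 15 arrays of correlation under 0.85 it gave 38 and 27, without those under 0.9 95 and 117, and without Af 168 h replicates 1 and 6 alone 15 and 0 (limma; 357 lower at an unadjusted p under 0.05). Of these, the 3 choices by correlation or replicate and the array weights were added after seeing the data. Between all arrays and without the 15, 47 genes were called with the same sign. Leaving out 1 array at a time gave 24 to 1542 rises and 19 to 2415 falls. With the replicate block it gave 15 and 28, where the numbers are not shown to pair arrays and replicate 3 of the 3 shared numbers correlated best with its own. The other alternatives (actin covariate, cyclic loess, no or stricter filter, probe set mean, array weights, robust prior) gave 482 to 790 rises and 685 to 1157 falls. The median of all genes lay between -0.196 and -0.0195.

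The difference from C57BL/6 was 459 higher and 1021 lower with all arrays, 22 and 42 with the hybridization covariate and 233 and 745 without the 15 arrays, and ranged over 37 to 1267 and 107 to 2061 when 1 array was left out. The difference from BALB/c, 0 higher and 1 lower, was 0 and 0 with the covariate and 1 and 0 without the 15 arrays, and 0 to 25 and 0 to 60 when 1 array was left out. The causes were not tested.

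The 63 genes followed, Sftpd among them, gave 1511 values under alternatives. Of these 1038 kept direction and side of the threshold, 465 kept the direction only, and 4 were newly past the threshold. The 4 that reversed were all of Sftpd, which is a description. Its difference was -0.78 with all arrays. It was 0.14 without arrays under 0.85, under 0.9 or without replicates 1 and 6, and 0.039 with array weights.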

Other observations

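The list of genes for protein folding in the endoplasmic reticulum, which secretory cells use heavily, had a median under the Af 96 h mean on each Af 168 h array (-1.22 to -0.27). Of 21 tested, 3 fell (14.3%, against 6.16% of all genes), 16 differences were negative, 5 were positive and the median was -0.53, or -0.28 with no call in the refit. Hsp90b1, a chaperone of the endoplasmic reticulum, averaged 9.71 ± 0.31 at Af 168 h and 10.72 ± 0.19 at Af 96 h (SD, n = 4 and 5; limma adjusted p = 0.0350, refit 0.107), and all Af 168 h arrays lay under all Af 96 h arrays. Dnajb9, a co-chaperone induced by unfolded protein, averaged 7.61 ± 1.56 and 9.50 ± 0.29 in those groups without overlap (limma adjusted p = 0.00651, refit 0.406).

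Mitochondrial respiration genes leaned the other way. Of 18 tested, 16 were higher with a median of 0.25, and 18 of 18 in the refit with a median of 0.63. The test called Cycs alone (5.56%, near the 3.76% of all genes) and the refit none. Replicate 6 differed in sign (-0.32), against 0.27, 0.44 and 0.69 on replicates 1, 3 and 4. Of 22 interferon-stimulated genes 2 fell (9.09%, near the 6.16% of all genes), Ifit2 and Rtp4, with 19 negative differences and a median of -0.46, or -0.21 with no call in the refit. Of 20 cholesterol and fatty acid synthesis genes 3 fell (15%), Lss, Cyp51 and Stard4, and none in the refit. The NRF2 antioxidant list, a group of oxidant-responsive genes, had 1 rise among 22, Gsta2 (4.55%, near the 3.76% of all genes). It had 2 falls, Me1 and Ephx1 (9.09%, near the 6.16% of all genes). Its median was 0.11, with no call in the refit.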
